A study of Mus musculus with 10 samples.

Results

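The genes described here make the acid interior of the lysosome and the enzymes that work in it. The rule that chose them uses gene symbols alone, and it was applied to a deposited table of 17359 genes. The rule took every gene of the Atp6v0 and Atp6v1 series, every cathepsin written as Cts and a single letter, and 21 named hydrolases, activators and membrane proteins. It found 56 genes, of which 21 code for subunits of the V-ATPase, 14 for cathepsins and 21 for the other proteins. Of the 56, 50 passed the filter on low counts, which left 12789 genes to test in the whole table. The other 6 were Atp6v0a4, Atp6v1b1, Atp6v1c2, Atp6v1e2, Ctse and Ctsj, and in no group did the mean of any of these exceed 0.672 CPM (CPM is the count relative to the library total in units of 1e+06, scaled between libraries by TMM factors, which take out the typical ratio between libraries).

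The V-ATPase is a rotary proton pump: its V1 sector splits ATP in the cytosol, and its V0 sector carries protons across the membrane and so acidifies the lysosome. Cathepsins are proteases, most of which work best in acid, and the other hydrolases remove sugars, sulfates and lipids from what autophagy and endocytosis deliver. Many lysosomal genes carry in their promoters the palindromic CLEAR element, to which the transcription factors TFEB and TFE3 are known to bind.

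All livers came from mice on a high-fat diet. Controls ate ad libitum (AL, n = 3, replicates 2, 3 and 4), and the restricted mice went through a weekly cycle that cut calories by 70% on days 2 and 3, cut them by 50% on days 1 and 4, and left feeding free from day 5 to day 7. Livers of the low-calorie phase were taken on day 3 (LC, n = 4, replicates 1 to 4) and those of the refeeding phase on day 7 (RF, n = 3, replicates 1 to 3). The sources used here do not give strain, sex, age, the number of cycles or the hour of collection, and no label says that samples of a group are separate animals, so p-values measure only the spread between these samples. Expected counts summed to between 13871533 and 15899479 per library. The TMM factor was higher in every LC library (1.06 to 1.18) than in any AL (0.827 to 0.952) or RF library (0.964 to 0.969), so the direction of a modest change can depend on the scaling. AL replicate 2 stood apart from the other AL libraries on the leading principal component over all genes, at -9.49 against -31.3 and -28.3, with RF between -21.9 and -14.2 and LC between 23.4 and 38.6.

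Promoter windows of 250 bases before to 50 bases after the start were available from RefSeq (build GRCm38.p6, which is not the authors' build GRCm39) for 44 of the 56 genes. The letters TCACGTGA, which are their own reverse complement and form the core of the CLEAR element, stood in a window of 7 of the 44 genes (15.9%), against 1.12% of all 27025 genes with a window and 2.14% of the tested ones. The 7 genes were Atp6v0d1, Atp6v0e, Atp6v1a, Ctsa, Ctsd, Gla and Mcoln1. The shorter TCACGTG, searched on both strands and including every TCACGTGA, was found for 13 of the 44 genes (29.5%, against 6.92% of tested genes), and CACGTG, which both contain, for 15 (34.1%, against 11.6%). The full palindrome, which adds a G before and a C after TCACGTGA, was found for 0 of the 44 genes, against 0.752% of tested genes, a share that would come to less than 1 gene in 44. Stretches upstream of the start are shown for a gene that rose at LC (Ctsa), for 3 that fell (Ctsd, Gla and Lamp1) and for 1 that was not called (Atp6v1a), so that the same letters can be seen before genes that moved differently. They are read 5′ to 3′ on the gene's strand, and capitals mark TCACGTG or its reverse complement CACGTGA with the added A or T where it completes TCACGTGA. Ctsa is from chr2:164833740-164833772 (plus strand), Ctsd from chr7:142387899-142388077 (minus), Gla from chrX:134601173-134601253 (minus), Lamp1 from chr8:13159079-13159160 (plus) and Atp6v1a from chr16:44139364-44139411 (minus), all in GRCm38.p6.
Ctsa: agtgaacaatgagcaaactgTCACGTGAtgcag
Ctsd: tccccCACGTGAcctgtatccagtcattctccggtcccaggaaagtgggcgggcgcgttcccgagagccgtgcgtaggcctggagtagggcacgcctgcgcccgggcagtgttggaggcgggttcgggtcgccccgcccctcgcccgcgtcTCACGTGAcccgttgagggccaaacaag
Gla: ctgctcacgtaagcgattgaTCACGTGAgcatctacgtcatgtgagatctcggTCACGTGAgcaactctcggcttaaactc
Lamp1: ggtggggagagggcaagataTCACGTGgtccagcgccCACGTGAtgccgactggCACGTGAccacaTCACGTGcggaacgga
Atp6v1a: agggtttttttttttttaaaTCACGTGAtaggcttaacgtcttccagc

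Lysosomal genes differed between LC and AL in both directions. At LC the abundant proteases Ctsb, Ctsd and Ctsl, the membrane glycoproteins Lamp1 and Lamp2, the lipid-tag hydrolase Ppt1 and the glycosidase Gla were lower than at AL, together with the V-ATPase genes Atp6v0d1, Atp6v0e, Atp6v1e1 and Atp6v1f. The serine carboxypeptidase Ctsa, the cathepsins Ctsf and Ctsk and the pump subunit Atp6v0a2 were higher. Of the 50 genes tested, 4 were called higher and 11 lower at an adjusted p below 0.05, which is 30% of them, against 31.5% of all genes tested (16% higher and 15.6% lower), so the share called was near the background. The CPM of the LC and AL libraries did not overlap for 6 genes that were higher and 14 that were lower at LC, against 18.7% and 17.1% of all genes tested, together 35.8%. The median log2 fold change of the 50 was -0.19, against 0.05 over all genes tested. With libraries scaled by their totals alone the split became 12 higher and 6 lower (24 and 12% of the 50, against 34.4 and 5.36% of all genes tested), and the 2 medians became 0.12 and 0.36, so the lysosomal median lay below that of all genes under both scalings. Dropping AL replicate 3 or AL replicate 4 left 2 of the 50 genes called higher, whereas dropping LC replicate 2 gave 7. With AL replicate 2 dropped, 17 were called lower. Over all genes tested, 2045 were called higher with every library kept. That all-gene figure was 959 when AL replicate 3 was dropped, 1196 for AL replicate 4 and 1958 for LC replicate 2. Lower calls over all genes were 1989 with every library kept and 2167 with AL replicate 2 dropped.

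After refeeding, none of the 50 genes was called against AL by edgeR, and none by DESeq2. Of all genes tested, edgeR called 0.0547% (0.0156% higher and 0.0391% lower). DESeq2 called 39 higher and 61 lower of the 17064 genes in its fit. The RF and AL libraries did not overlap for 1 gene higher and 8 lower at RF, against 9.38% and 9.56% of all genes tested, together 18.9%. At an unadjusted p below 0.05 there were 6 such genes (12%), against 10.8% of all genes tested. The log2 fold changes ran from -0.64 to 0.51 with a median of -0.11, against 0.01 over all genes, and the smallest adjusted p was 0.325. A missed threshold does not show that the RF and AL levels were equal.

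Between RF and LC, 9 genes were called higher at RF (Ctsb, Ctsd, Ctsl, Ctss, Lamp1, Lamp2, Ppt1, Gla and Atp6v0e) and 5 lower (Ctsa, Ctsf, Ctsz, Neu1 and Atp6v0b). That is 28% of the 50 genes, against 22.1% of all genes tested (11.4% higher and 10.7% lower), with medians of 0.09 and -0.02. The RF and LC libraries did not overlap for 12 genes higher and 7 lower at RF, against 17.7% and 16.5% of all genes tested, together 34.1%. Scaling by library totals alone gave 2 higher and 8 lower (4 and 16% of the 50), against 5.26 and 21.3% of all genes tested. The 2 counts were 5 and 3 without LC replicate 1, 2 and 2 without RF replicate 2 and 5 and 3 without RF replicate 3, and the count lower was also 3 without LC replicate 4 or without RF replicate 1. Over all genes the 2 counts were 1452 and 1369 with no library left out. They were 1064 and 966 without LC replicate 1, 792 and 643 without RF replicate 2 and 874 and 768 without RF replicate 3. The all-gene count lower was 1059 without LC replicate 4 and 914 without RF replicate 1. LC against AL and RF against LC use the same 4 LC libraries, so their values are given side by side below and not as separate evidence.

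**Figure D1:**
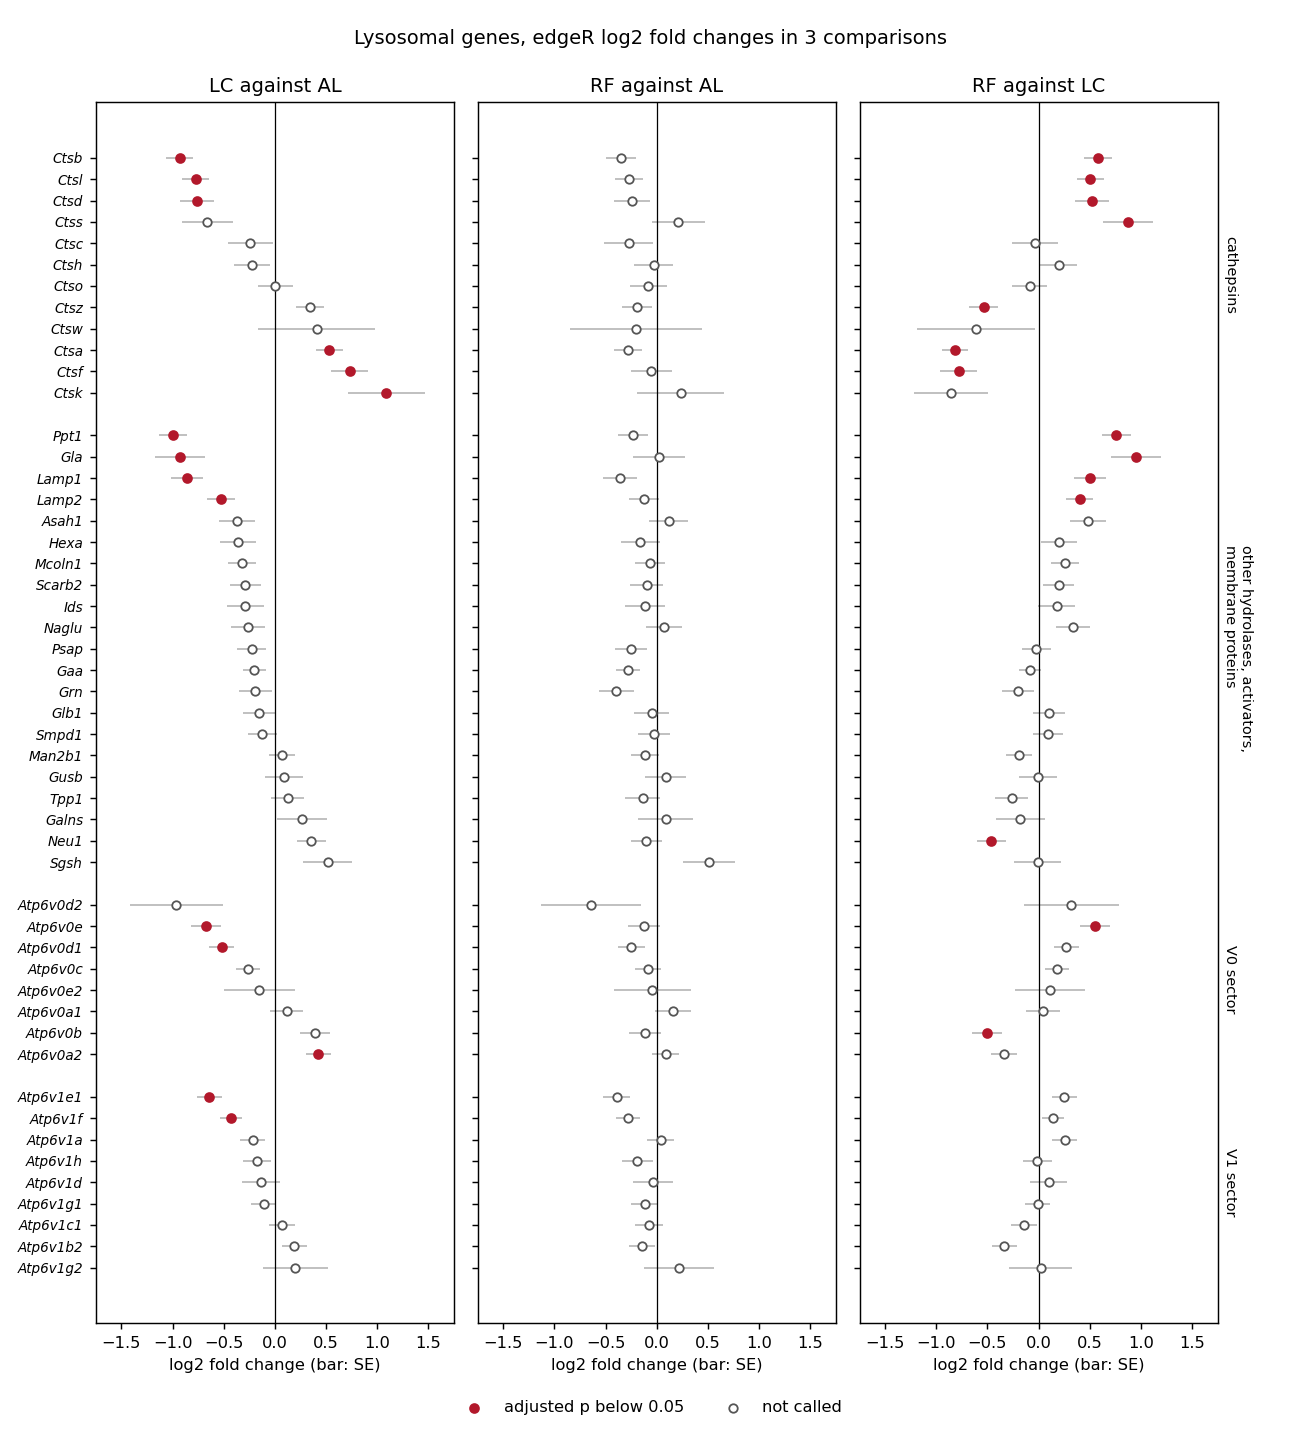
The log2 fold change (horizontal axis; bar, 1 standard error) of each of the 50 tested lysosomal genes (rows, grouped by role) in LC against AL, RF against AL and RF against LC. Filled points passed an adjusted p below 0.05: 15 genes in the left panel, none in the middle and 14 in the right.

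Among the V-ATPase genes, 17 of 21 were tested, and at LC 1 was higher than at AL and 4 were lower, which is 29.4% of them, near the 31.5% of all genes tested. Of the 8 tested V0 genes 1 rose and 2 fell, and of the 9 tested V1 genes none rose and 2 fell. The median log2 change of the 17 was -0.15, but with library totals alone it was 0.17, with 5 genes higher and 1 lower. Over all genes that scaling gave a median of 0.36, with 34.4% higher and 5.36% lower. In the V1 sector the 2 that fell, Atp6v1e1 and Atp6v1f, code for a stalk subunit and for a subunit of the central rotor.

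Atp6v1e1 stood at 82.5, 98.0 and 106 CPM in AL, at 61.7, 58.5, 57.4 and 67.3 CPM in LC and at 69.3, 69.5 and 79.6 CPM in RF. The LC libraries were the lowest of the 3 groups and overlapped neither of the others. The fall at LC was -0.64 ± 0.12 on the log2 scale (SE, adjusted p = 0.0021), and it was called under every alternative tried, with values from -0.74 to -0.33. The difference between RF and LC was 0.25 ± 0.12 (adjusted p = 0.158).

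Atp6v1f gave 75.1, 68.4 and 67.8 CPM in AL, 53.4, 49.4, 50.4 and 56.4 CPM in LC and 62.1, 55.5 and 56.0 CPM in RF. All LC values lay below all AL values, whereas LC and RF overlapped. The log2 change at LC was -0.43 ± 0.11 (adjusted p = 0.0099), but -0.12 (adjusted p = 0.472) with library totals alone. That call was also lost in every log2 FPKM fit. The catalytic subunit A (Atp6v1a), nucleotide-binding subunit B2 (Atp6v1b2), the C1 and G1 subunits, subunit D (Atp6v1d) and regulatory subunit H (Atp6v1h) were not called. In CPM, every LC value of Atp6v1b2 lay above every AL and RF value. With library totals alone it was called at LC against AL (0.50, adjusted p = 0.0056) and at RF against LC (-0.54, adjusted p = 0.0069). Atp6v1c1 was then called at LC against AL (0.38, adjusted p = 0.0329). Every log2 FPKM fit gave the same 3 calls. At RF against LC, Atp6v1b2 was also called with the 5 CPM filter (adjusted p = 0.0404). Atp6v1h, which regulates the coupling of the sectors, stood at 82.6, 76.8 and 90.6 CPM in AL, at 74.8, 61.9, 67.0 and 91.3 CPM in LC and at 68.6, 72.4 and 78.2 CPM in RF. The groups overlapped, and the log2 change at LC was -0.18 ± 0.14 (adjusted p = 0.354).

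In the V0 sector Atp6v0e, a small membrane subunit, stood at 21.2, 26.2 and 31.6 CPM in AL, at 14.6, 18.2, 15.4 and 17.9 CPM in LC and at 23.7, 25.3 and 23.6 CPM in RF. Its LC values were below every AL and RF value. The log2 change was -0.67 ± 0.15 at LC against AL (adjusted p = 0.0043) and 0.55 ± 0.15 at RF against LC (adjusted p = 0.0174). Neither passed when libraries were scaled by totals alone (adjusted p = 0.0604 and 0.0869). The first was also lost on log2 FPKM with no filter (adjusted p = 0.0611). The second was also lost in every log2 FPKM fit and without RF replicate 2 (adjusted p = 0.0688 for the latter). Atp6v0d1, the subunit that joins the rotor to the proteolipid ring, stood at 57.7, 67.0 and 73.1 CPM in AL, at 44.3, 43.6, 44.3 and 51.9 CPM in LC and at 52.3, 54.1 and 59.9 CPM in RF. LC was again the lowest group without overlap. The change at LC was -0.52 ± 0.12 (adjusted p = 0.0064). It missed the threshold under library totals (-0.20, adjusted p = 0.207) and in every log2 FPKM fit. The difference between RF and LC was 0.27 ± 0.12 (adjusted p = 0.129). Of the alternatives, only the replicate block called it (0.33, adjusted p = 0.0431).

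Atp6v0a2, a form of the large proton-channel subunit a, moved the other way. It gave 42.3, 38.5 and 37.6 CPM in AL, 48.7, 55.9, 47.4 and 60.1 CPM in LC and 38.3, 41.9 and 45.5 CPM in RF, so that LC was the highest group without overlap. The rise at LC was 0.43 ± 0.12 (adjusted p = 0.0192), and the call was lost without AL replicate 3 or AL replicate 4 (adjusted p of 0.0767 to 0.0794). Atp6v0b, a proteolipid of the membrane ring, gave 79.3, 66.8 and 71.5 CPM in AL, 105, 77.4, 81.9 and 115 CPM in LC and 69.6, 62.4 and 69.1 CPM in RF. LC replicates 1 and 4 were the highest, and LC overlapped AL but not RF. Its log2 difference was 0.39 ± 0.15 at LC against AL (adjusted p = 0.0592) and -0.50 ± 0.15 at RF against LC (adjusted p = 0.0281). The second call was lost on leaving out any 1 of LC replicates 1 and 4 and RF replicates 1, 2 and 3 (adjusted p of 0.0622 to 0.112), and the first was gained with library totals alone (0.70, adjusted p = 0.0042).

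Levels of different subunits can be compared only per length, in the authors' FPKM (fragments scaled by transcript length and library depth). In the V0 sector the ring proteolipid Atp6v0c had the highest FPKM, 202 in AL, 229 in LC and 208 in RF on average, followed by Atp6v0b with 83.2, 126 and 81.0 FPKM. In CPM, Atp6v0c was at 178, 201 and 211 in AL, 172, 166, 148 and 172 in LC and 184, 182 and 191 in RF, with a log2 change at LC of -0.26 ± 0.12 (adjusted p = 0.0995). The direction of this gene thus differed between the 2 scales. In the V1 sector Atp6v1f was highest, with 167, 150 and 145 FPKM, and the catalytic Atp6v1a was at 7.62, 8.20 and 8.45 FPKM. The summed V0 genes averaged 449, 424 and 425 CPM in AL, LC and RF but 391, 452 and 392 FPKM, so a direction for the sector as a whole flips with the scaling. The summed V1 genes averaged 462, 392 and 405 CPM and 450, 446 and 410 FPKM.

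**Figure D2:**
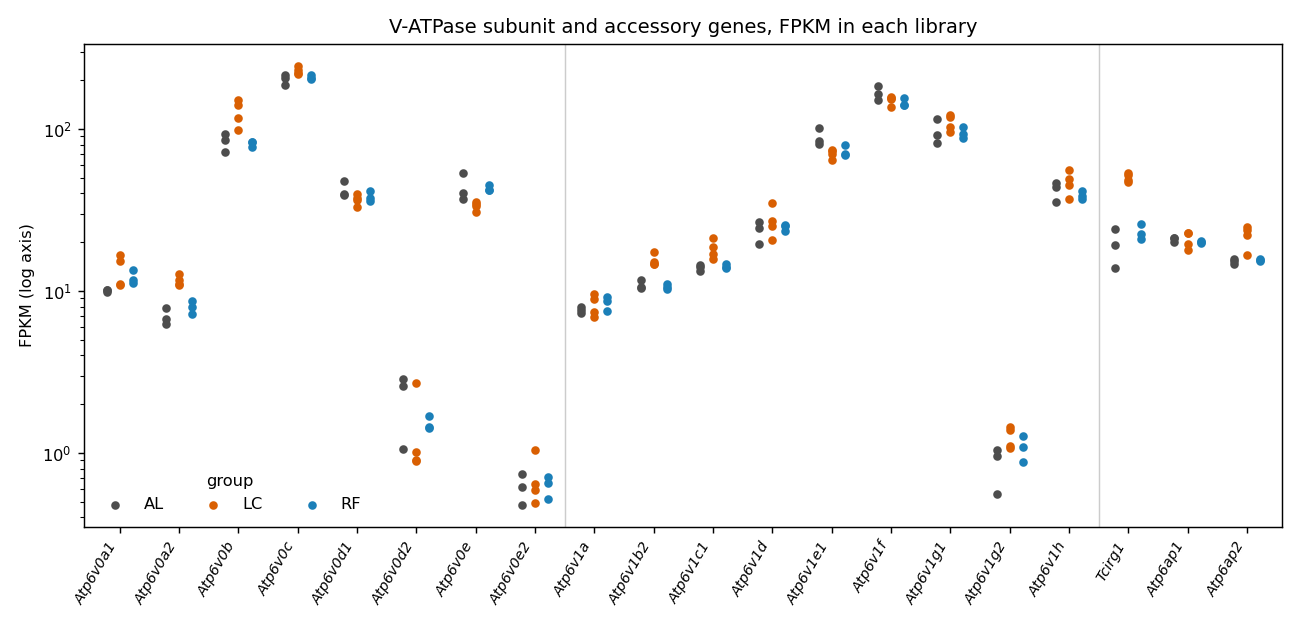
FPKM (log axis) of the tested V-ATPase genes in each library, by group, with V0 genes at the left, V1 genes in the middle, and at the right Tcirg1, Atp6ap1 and Atp6ap2, which the symbol rule does not take. Tcirg1 in LC averages 50.0 FPKM and lies above all AL and RF points, which average 19.1 and 23.1 FPKM.

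Several subunits are coded by more than 1 gene, and a share of FPKM among those genes does not depend on how libraries are scaled. One gene supplied nearly all transcripts of most such subunits: the lowest share in any library was 99.6% for Atp6v1b2, 99.7% for Atp6v1c1, 99.9% for Atp6v1e1, 98.7% for Atp6v1g1, 97.0% for Atp6v0e and 92.4% for Atp6v0d1. Subunit a was the exception. Tcirg1, which codes for the a3 form and lies outside the symbol rule, held 57.6, 45.9 and 53.1% of subunit a FPKM in AL, 67.1, 62.3, 68.7 and 68.7% in LC and 54.5, 54.7 and 51.2% in RF. LC was above both other groups without overlap, with a mean of 66.7% ± 3.04 (SD, n = 4) against 52.2% ± 5.90 (n = 3) in AL and 53.5% ± 2.00 (n = 3) in RF. Atp6v0a1 held 28.4% ± 4.95 in AL, 17.9% ± 3.48 in LC and 27.9% ± 0.381 in RF, and Atp6v0a2 held nearly all of the rest, 19.4% ± 1.10, 15.4% ± 1.24 and 18.5% ± 2.38. In CPM Tcirg1 was at 62.1, 41.0 and 51.5 in AL, 114, 108, 101 and 118 in LC and 57.5, 65.4 and 52.5 in RF. It rose by 1.10 ± 0.15 at LC against AL (adjusted p = 0.000361) and was 0.91 lower at RF than at LC (log2 difference -0.91 ± 0.15, adjusted p = 0.0017). No share was tested, since the genes were singled out after their values were seen.

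Among the cathepsins, 12 of 14 were tested, and at LC 3 rose and 3 fell against AL (50% of them, against 31.5% of all genes tested), with a median log2 change of -0.11 (4 higher, 3 lower and a median of 0.21 with library totals alone). Those that fell were the abundant endoproteases. Ctsb, a cysteine protease, stood at 478, 525 and 537 CPM in AL, at 243, 241, 331 and 262 CPM in LC and at 397, 391 and 418 CPM in RF, and no 2 groups overlapped. It fell at LC by 0.93 ± 0.14 on the log2 scale (adjusted p = 0.000508), and its difference between RF and LC was 0.58 ± 0.14 (adjusted p = 0.0099). The fall was called under every alternative. The call at RF against LC was lost with library totals alone (0.37, adjusted p = 0.0738) and in every log2 FPKM fit (adjusted p up to 0.127). Ctsb overlaps Fdft1, a gene of sterol synthesis, which was not called at LC (0.07, adjusted p = 0.898). The level at RF was below every AL library, with a log2 difference of -0.35 ± 0.15 that was not called (adjusted p = 0.408).

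Ctsl, another cysteine protease and the cathepsin with the highest FPKM, stood at 613, 713 and 707 CPM in AL, at 357, 455, 370 and 402 CPM in LC and at 530, 611 and 546 CPM in RF. The 3 groups did not overlap. Its log2 value was -0.77 ± 0.13 at LC against AL (adjusted p = 0.0011) and 0.50 ± 0.13 at RF against LC (adjusted p = 0.0154). The first was called under every alternative, and the second was lost with library totals alone (adjusted p = 0.0693) and without RF replicate 2 (adjusted p = 0.0809). Ctsd, the aspartic protease, ran at 196, 254 and 327 CPM in AL, 143, 142, 149 and 177 CPM in LC and 211, 248 and 198 CPM in RF. AL was spread widely, with replicate 2 lowest, and AL and RF overlapped, but all LC values were below both. The change at LC was -0.76 ± 0.17 (adjusted p = 0.0042), and it was -0.44 (adjusted p = 0.0404) with library totals alone and lost only on log2 FPKM with no filter (adjusted p = 0.0753). The difference between RF and LC was 0.52 ± 0.17 (adjusted p = 0.0373). It was lost with library totals alone (0.32, adjusted p = 0.159), in every log2 FPKM fit (adjusted p up to 0.207) and on leaving out any 1 of AL replicate 3, LC replicates 1, 2 and 3 and RF replicates 1, 2 and 3 (adjusted p of 0.0505 to 0.157).

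Averaged over all 10 libraries, the cathepsins that rose had lower FPKM (1.07 to 82.2) than those that fell (121 to 361). Within LC, however, Ctsa averaged 115 FPKM and Ctsd 102. Ctsz and Ctsh, at 183 and 124 FPKM over all libraries, were not called at LC against AL. Ctsa, also called protective protein, is a carboxypeptidase that holds β-galactosidase and neuraminidase in a complex. It stood at 146, 145 and 145 CPM in AL, at 235, 216, 189 and 199 CPM in LC and at 124, 102 and 132 CPM in RF. LC was highest and RF lowest, with no overlap between any groups. The rise at LC was 0.53 ± 0.13 (adjusted p = 0.0077) and the difference between RF and LC -0.82 ± 0.13 (adjusted p = 0.0015), and both were called under every alternative. Ctsa overlaps Pltp and Neurl2, and without strand their reads cannot be fully told apart, and Pltp, a phospholipid transfer protein, changed by -2.05 at LC (adjusted p = 0.0107).

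Ctsf, a cysteine protease with low levels, stood at 14.2, 15.5 and 17.7 CPM in AL, at 24.7, 27.5, 22.1 and 30.7 CPM in LC and at 13.3, 12.1 and 20.3 CPM in RF. All LC libraries were above all others. The log2 change was 0.73 ± 0.18 at LC against AL (adjusted p = 0.0095), called under every alternative, and -0.78 ± 0.18 at RF against LC (adjusted p = 0.0099), which was lost without RF replicate 2 (adjusted p = 0.0549). Ctsk, a collagen-degrading protease best known from bone, was near the limit of what was tested, at 1.26, 0.546 and 0.897 CPM in AL, 2.26, 1.60, 1.94 and 1.95 CPM in LC and 0.924, 1.66 and 0.602 CPM in RF. Its rise of 1.09 ± 0.38 (adjusted p = 0.0409) was lost on leaving out any 1 of AL replicates 3 and 4 and LC replicates 1, 3 and 4 (adjusted p of 0.0673 to 0.173).

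Ctsz, an exopeptidase, stood at 200, 194 and 206 CPM in AL, at 227, 221, 246 and 321 CPM in LC and at 174, 168 and 183 CPM in RF. LC was highest without overlap, and replicate 4 was highest within it. Ctsz overlaps Nelfcd, which was not called at LC (0.05, adjusted p = 0.749). The log2 difference was 0.34 ± 0.14 at LC against AL (adjusted p = 0.0778) and -0.54 ± 0.14 at RF against LC (adjusted p = 0.0171). The second was lost without RF replicate 1 or RF replicate 2 (adjusted p of 0.0559 to 0.075), and the first was called with library totals alone (0.65, adjusted p = 0.0031). Ctss, a protease prominent in macrophages and dendritic cells, gave 10.4, 7.33 and 13.7 CPM in AL, 5.78, 6.28, 8.94 and 5.52 CPM in LC and 8.82, 15.4 and 12.2 CPM in RF. LC overlapped each of the other groups by single libraries. It was called only at RF against LC (0.87 ± 0.25, adjusted p = 0.0228). That call was lost with library totals alone (adjusted p = 0.0854) and in every log2 FPKM fit (adjusted p up to 0.232). It was also lost on leaving out any 1 of LC replicates 1 and 4 and RF replicates 2 and 3 (adjusted p of 0.0594 to 0.118). Ctsc, Ctsh, Ctso and Ctsw were not called in any comparison. Of these Ctsh, an aminopeptidase, had the highest level, at 117, 129 and 124 FPKM on average in AL, LC and RF.

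**Figure D3:**
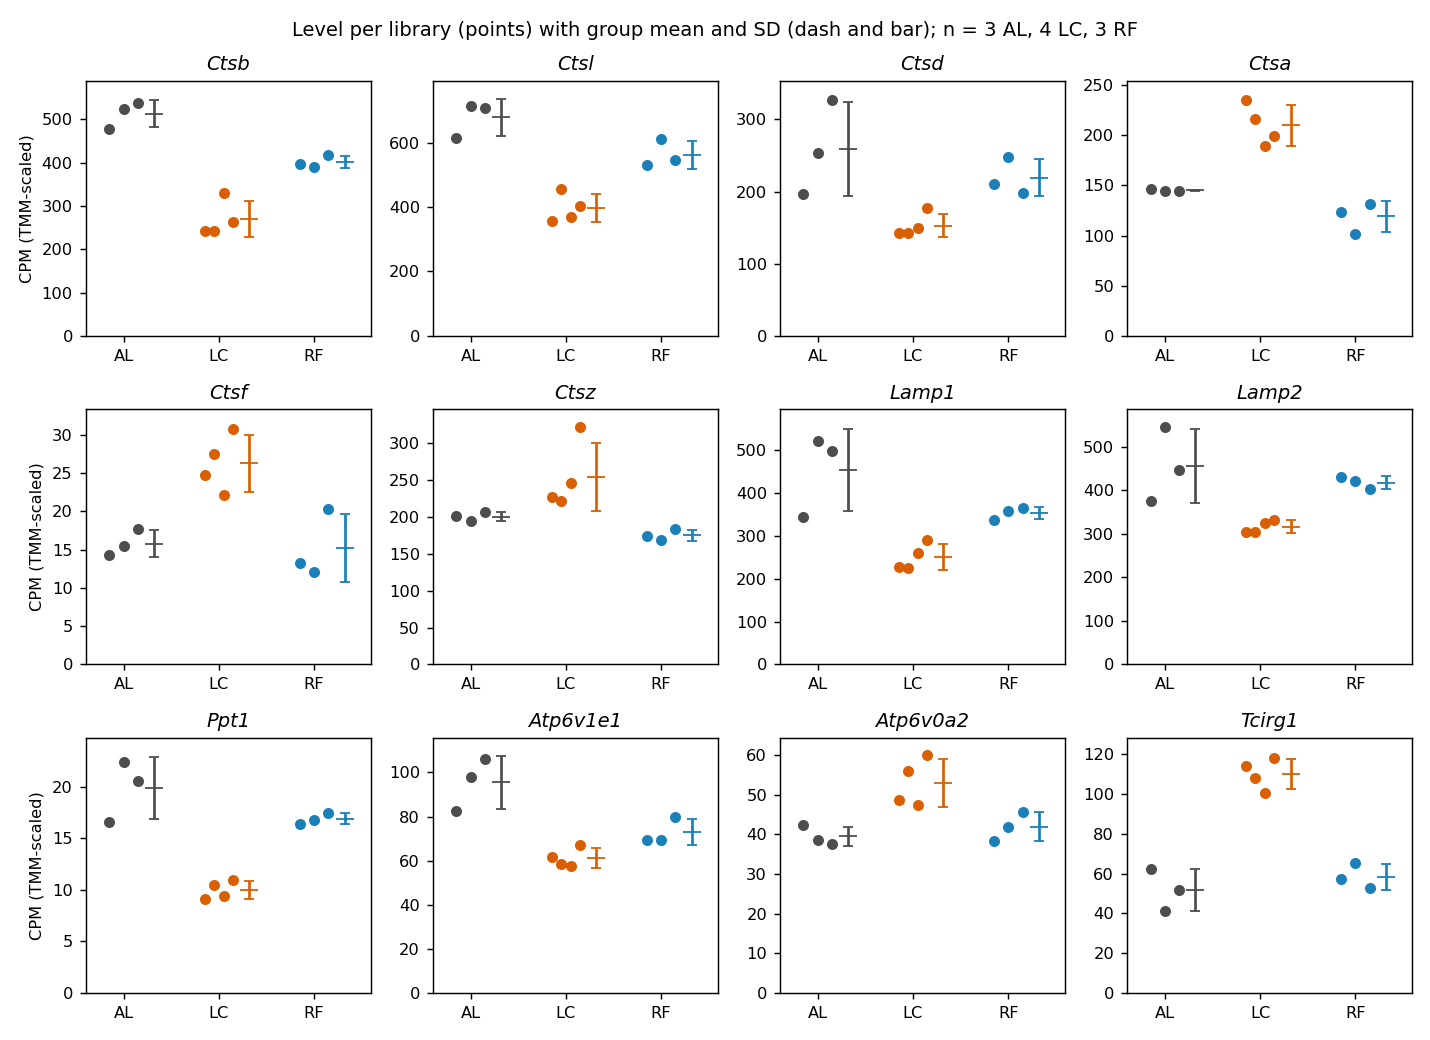
CPM in each library (points) with the group mean and SD (dash and bar) for 11 lysosomal genes and Tcirg1, in AL (n = 3), LC (n = 4) and RF (n = 3); each panel has its own axis from 0. Ctsb, Ctsl, Ctsd, Lamp1, Lamp2, Ppt1 and Atp6v1e1 are lowest in LC, and Ctsa, Ctsf, Ctsz, Atp6v0a2 and Tcirg1 are highest there.

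The make-up of the cathepsin transcripts, which does not depend on how libraries are scaled, differed at LC. Ctsb, Ctsd and Ctsl together made up 70.2, 71.0 and 70.1% of all cathepsin FPKM in AL, 53.8, 55.9, 56.3 and 51.3% in LC and 68.4, 69.6 and 66.6% in RF. The means were 70.4% ± 0.482 (SD, n = 3), 54.3% ± 2.29 (n = 4) and 68.2% ± 1.49 (n = 3), and the LC libraries were separate from both other groups. The share of Ctsz was 11.9% ± 1.02 in AL, 20.04% ± 2.45 in LC and 12.3% ± 0.717 in RF. The share of Ctsa was 5.06% ± 0.434, 9.83% ± 1.57 and 4.88% ± 0.737, and that of Ctsf 0.647% ± 0.0236, 1.45% ± 0.163 and 0.738% ± 0.212. All cathepsins summed to 2084, 1548 and 1755 CPM on average in AL, LC and RF, and to 1280, 1176 and 1162 FPKM. The shares were not tested, since these genes were singled out after their values were seen.

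**Figure D4:**
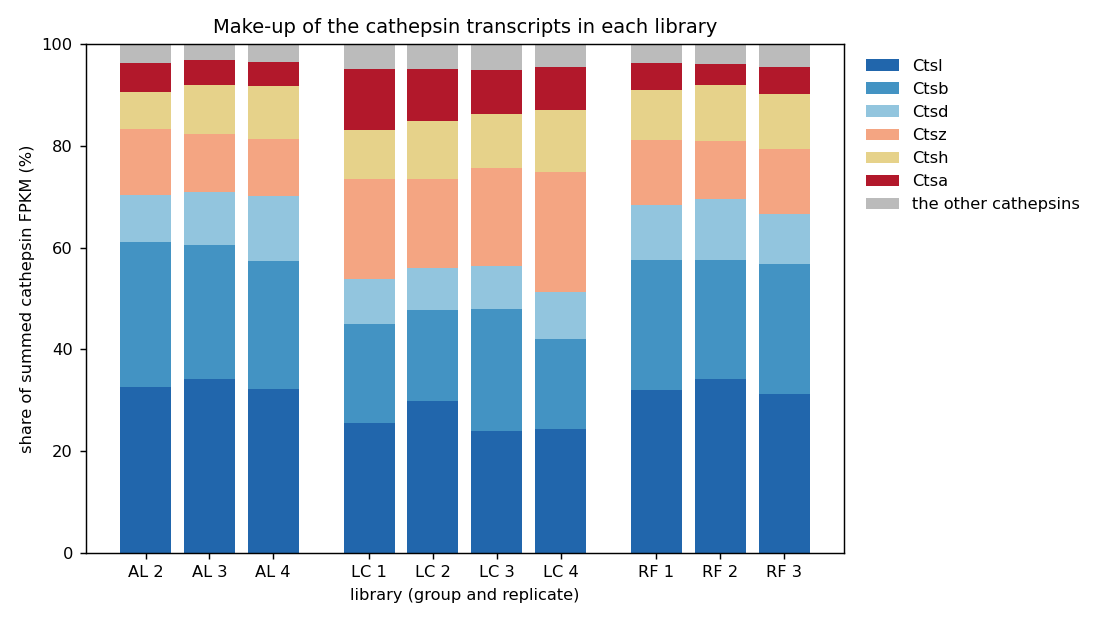
Share of the summed cathepsin FPKM (%, vertical axis) held by each cathepsin gene in each of the 10 libraries. The 3 blue segments at the bottom, Ctsl, Ctsb and Ctsd, reach 70.1 to 71.0% in AL, 51.3 to 56.3% in LC and 66.6 to 69.6% in RF.

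All 4 lysosomal membrane proteins in the set had negative log2 values at LC, from -0.86 to -0.29, and 2 of them fell (50%, against 15.6% of all genes tested that fell), whereas with library totals alone the values ran from -0.54 to 0.03 and only Lamp1 fell. Lamp1 and Lamp2 are the heavily glycosylated proteins that line the lysosomal membrane, and Lamp2 also serves as the receptor of chaperone-mediated autophagy. Lamp1 stood at 345, 521 and 498 CPM in AL, at 227, 225, 260 and 290 CPM in LC and at 338, 358 and 366 CPM in RF. LC was lowest without overlap, and AL replicate 2 lay in the range of RF. The log2 change was -0.86 ± 0.15 at LC against AL (adjusted p = 0.0015), called under every alternative. Between RF and LC it was 0.50 ± 0.15 (adjusted p = 0.0344). That call was lost with library totals alone (adjusted p = 0.141) and in every log2 FPKM fit (adjusted p up to 0.156). It was also lost on leaving out any 1 of LC replicates 1, 2 and 3 and RF replicates 1, 2 and 3 (adjusted p of 0.0514 to 0.105).

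Lamp2 gave 376, 545 and 446 CPM in AL, 303, 305, 326 and 332 CPM in LC and 431, 420 and 402 CPM in RF. All LC values were below those of the other groups. On the log2 scale it changed by -0.53 ± 0.14 at LC against AL (adjusted p = 0.0106). That call was lost with library totals alone (-0.20, adjusted p = 0.204), in every log2 FPKM fit (adjusted p up to 0.239) and without AL replicate 3 (adjusted p = 0.0774). The log2 change at RF against LC was 0.40 ± 0.14 (adjusted p = 0.0485), lost under 15 of the 20 alternatives. Among them were leaving out AL replicate 4 or any 1 of the LC or RF libraries (adjusted p of 0.061 to 0.134) and the replicate block. Mcoln1, the TRPML1 calcium channel, was at 21.6, 26.4 and 26.8 CPM in AL, 19.3, 23.6, 19.4 and 17.4 CPM in LC and 22.1, 24 and 25.2 CPM in RF, and LC replicate 2 overlapped AL. Its change at LC was -0.32 ± 0.14 (adjusted p = 0.0864). Scarb2, which carries β-glucocerebrosidase to the lysosome, was not called either.

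Of the 17 soluble hydrolases, activators and cofactors, 2 fell at LC and none rose, and with the 4 membrane proteins 19% were called, against 31.5% of all genes tested. With library totals alone Ppt1 fell and Man2b1, Neu1 and Sgsh rose. Sgsh, at 2.97 to 6.34 CPM, overlaps Slc26a11, from which it cannot be fully told apart without strand. Under TMM scaling Slc26a11 changed by 1.03 at LC against AL (adjusted p = 0.000888). Ppt1, which removes palmitate from proteins, stood at 16.6, 22.5 and 20.6 CPM in AL, at 9.17, 10.5, 9.37 and 10.9 CPM in LC and at 16.4, 16.8 and 17.5 CPM in RF. Every LC library was below every other library. The log2 value was -0.995 ± 0.14 at LC against AL (adjusted p = 0.000418), the smallest adjusted p among the 50 genes, and 0.76 ± 0.14 at RF against LC (adjusted p = 0.003). Both were called under every alternative. Ppt1 overlaps Cap1, an actin-binding gene, from which it cannot be fully told apart without strand, and Cap1 changed by -0.82 (adjusted p = 0.002) and 0.66 (adjusted p = 0.0094) in the same comparisons.

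Gla, the α-galactosidase that trims globosides, was low, at 3.41, 5.77 and 5.45 CPM in AL, 2.45, 2.59, 2.75 and 2.45 CPM in LC and 4.27, 6.59 and 4.01 CPM in RF. LC was lowest without overlap and varied little. Its log2 value was -0.93 ± 0.25 at LC against AL (adjusted p = 0.0121). That call was lost with library totals alone (-0.60, adjusted p = 0.0651) and in every log2 FPKM fit (adjusted p up to 0.101). It was also lost without AL replicate 3 or AL replicate 4 (adjusted p of 0.0535 to 0.0692). The log2 value at RF against LC was 0.95 ± 0.24 (adjusted p = 0.0148), lost without RF replicate 2 (adjusted p = 0.0947) and in 1 log2 FPKM fit (adjusted p = 0.0604). Neu1, the neuraminidase held in the complex with Ctsa, gave 33.8, 30.8 and 38.8 CPM in AL, 52.7, 36.5, 44.5 and 43.1 CPM in LC and 35.5, 32.1 and 28.8 CPM in RF. LC lay above RF and overlapped AL by 1 library. Its log2 difference was 0.36 ± 0.14 at LC against AL (adjusted p = 0.0701) and -0.46 ± 0.14 at RF against LC (adjusted p = 0.0339). The second was lost on leaving out any 1 of LC replicates 1, 3 and 4 and RF replicates 2 and 3 (adjusted p of 0.0553 to 0.141). Glb1, the β-galactosidase of the same complex, ran from 10.2 to 11.1 CPM in AL, from 7.54 to 10.9 CPM in LC and from 9.46 to 10.9 CPM in RF, and was not called.

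The other soluble enzymes were not called in any comparison. Gaa, which breaks down glycogen in the lysosome, stood at 74.2, 79.4 and 86.7 CPM in AL, 71.7, 65.3, 70.2 and 71.9 CPM in LC and 62.2, 69.0 and 66.2 CPM in RF. AL was the highest group without overlap, with log2 differences of -0.20 ± 0.11 at LC (adjusted p = 0.176) and -0.28 ± 0.12 at RF (adjusted p = 0.406). The 5 enzymes that break down glycosaminoglycans (Galns, Gusb, Ids, Naglu and Sgsh) had log2 values from -0.29 to 0.52 at LC, and from 0.04 to 0.82 with library totals alone. Naglu, a glucosaminidase and the most abundant of them per length, stood at 16.5, 18.3 and 15.9 CPM in AL, 11.1, 18.2, 12.01 and 15.1 CPM in LC and 17.1, 18.6 and 17.5 CPM in RF, with overlap between groups and a log2 change of -0.26 ± 0.17 at LC (adjusted p = 0.24). Of the 3 sphingolipid genes, Psap, the precursor of the saposin activators, had the highest FPKM, at 140, 149 and 127 on average in AL, LC and RF, and the 3 had log2 values at LC from -0.37 to -0.12, or from -0.04 to 0.19 with library totals alone. In CPM Psap was at 305, 367 and 427 in AL, 268, 334, 299 and 351 in LC and 285, 319 and 321 in RF, overlapping throughout, with a log2 change of -0.23 ± 0.14 at LC (adjusted p = 0.25). Man2b1, a mannosidase, was at 69.3, 79.5 and 87.8 CPM in AL, 96.6, 80.6, 77.4 and 77.4 CPM in LC and 70.8, 69.9 and 77.4 CPM in RF, a change of 0.07 ± 0.13 at LC (adjusted p = 0.684). Grn, a growth factor precursor that is cut to granulins in the lysosome, stood at 219, 244 and 250 CPM in AL, 202, 212, 183 and 236 CPM in LC and 136, 188 and 219 CPM in RF. Its groups overlapped, and the log2 change was -0.19 ± 0.16 at LC (adjusted p = 0.382).

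**Figure D5:**
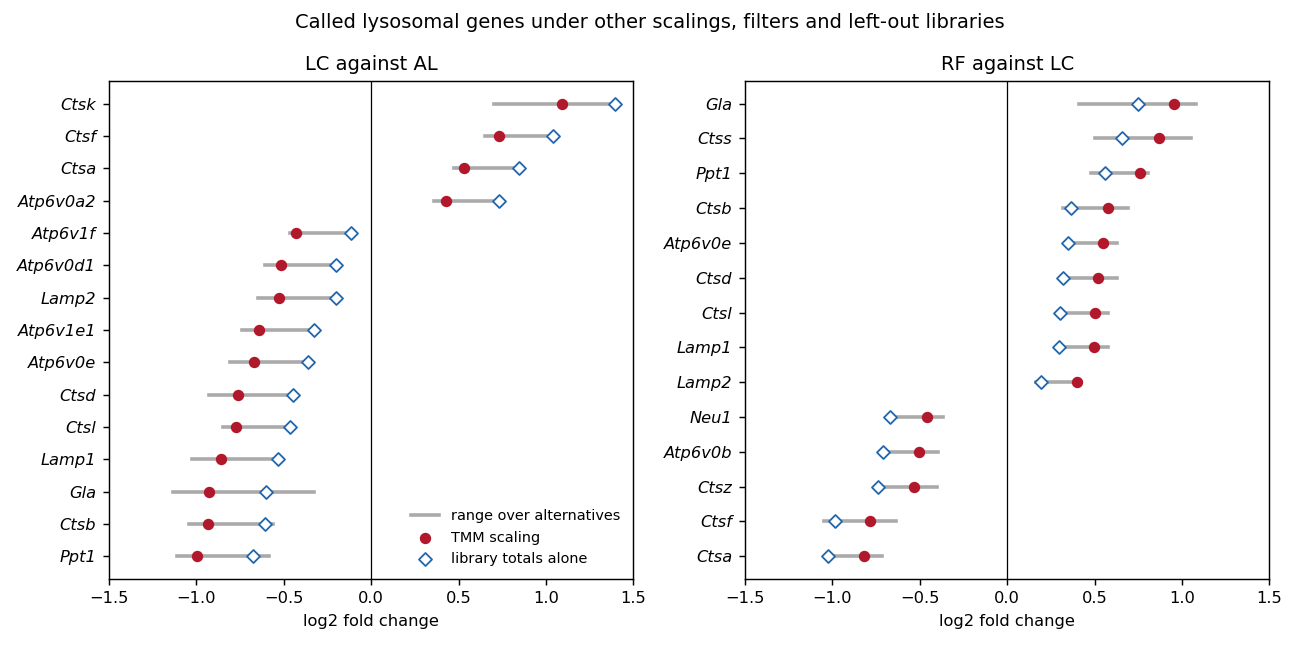
Log2 fold change of each called lysosomal gene in LC against AL (left) and RF against LC (right) under TMM scaling (filled circles) and library totals alone (open diamonds), with the range over all alternatives (grey bars). Library totals move every gene up at LC against AL, for instance Ppt1 from -0.995 to -0.68 and Ctsa from 0.53 to 0.85, and no bar crosses 0.

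The 7 genes with TCACGTGA in the promoter window did not share a direction. Against AL, Ctsa was higher at LC, Atp6v0d1, Atp6v0e, Ctsd and Gla were lower, and Atp6v1a and Mcoln1 were not called. Lamp1, with 4 copies of the 7-letter form upstream, fell, whereas Atp6v0b, with 2 copies within 37 bases of the start, was the gene with a value of 0.39 that missed the threshold at LC. The 32 tested genes that had windows, none with TCACGTGA, held 2 higher, 6 lower and 24 not called. Of all genes tested, 16% were higher and 15.6% lower at LC. At RF against LC the 7 genes held 3 higher, 1 lower and 3 not called, and the 32 held 5, 4 and 23. Of all genes tested, 11.4% were higher and 10.7% lower in that comparison. Genes with and without the letters were not tested against each other.

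A wider list of 72 lysosomal genes outside the set, of which 71 were tested, also held genes of both directions: 10 were higher and 17 lower at LC than at AL, none was called at RF against AL, and 13 were higher and 9 lower at RF than at LC. These are 38% at LC and 31% at RF against LC, beside 31.5% and 22.1% of all genes tested. Library totals alone turned these splits to 24 higher and 7 lower at LC and to 3 higher and 21 lower at RF against LC. With that scaling 34.4% of all genes tested were higher and 5.36% lower at LC. At RF against LC 5.26% of all genes were higher and 21.3% lower. The median log2 change of the 71 genes at LC was -0.09, or 0.23 with library totals alone, against the 0.05 and 0.36 of all genes. Among its enzymes Galc, which degrades galactosylceramide, rose by 1.24 ± 0.21 (adjusted p = 0.001), while Arsb, a sulfatase, changed by -1.0 ± 0.17 (adjusted p = 0.0013). Fuca1, a fucosidase, changed by -0.80 ± 0.12 (adjusted p = 0.000551) and Acp5, the tartrate-resistant acid phosphatase, by -0.81 ± 0.14 (adjusted p = 0.0011). Idua, which degrades glycosaminoglycans, rose by 1.11 ± 0.15 (adjusted p = 0.000362), but it overlaps Dgkq, a diacylglycerol kinase that changed by 1.30 (adjusted p = 0.00028), and the reads cannot be fully told apart. The lysosomal acid lipase Lipa stood at 72.1, 113 and 136 CPM in AL, 57.0, 63.2, 62.4 and 84.8 CPM in LC and 111, 108 and 106 CPM in RF, with log2 values of -0.68 ± 0.19 (adjusted p = 0.0157) at LC against AL and 0.69 ± 0.19 (adjusted p = 0.0201) at RF against LC. Both calls of Lipa were lost with library totals alone (adjusted p = 0.117 and 0.0532).

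Regulators and transporters on the lysosomal surface also divided. Flcn, a GTPase-activating protein for the Rag GTPases, stood at 55.4, 40.0 and 40.6 CPM in AL, 150, 94.8, 96.9 and 115 CPM in LC and 59.0, 36.2 and 43.0 CPM in RF. LC was far above the other groups, with a rise of 1.33 ± 0.21 (adjusted p = 0.000805). Among the other 12 regulators its partner Fnip1 rose (0.61, adjusted p = 0.0094), and the Ragulator genes Lamtor1 (-0.59, adjusted p = 0.0038), Lamtor2 (-0.44, adjusted p = 0.0095) and Lamtor5 (-0.50, adjusted p = 0.0073) fell. The other Ragulator genes, Lamtor3 (0.02, adjusted p = 0.935) and Lamtor4 (-0.22, adjusted p = 0.169), were not called, and with library totals alone none of the 5 was called (-0.27 to 0.33). Fnip1 and the Ragulator genes are named after their values were seen. Slc38a9, an arginine sensor of the membrane, rose by 0.70 ± 0.12 (adjusted p = 0.0013). Npc1, which exports cholesterol and overlaps Rmc1, was not called at LC against AL (0.10, adjusted p = 0.535; 0.42, adjusted p = 0.0168, with library totals alone) and was lower at RF than at LC (-0.62 ± 0.12, adjusted p = 0.0043).

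Tfeb, which codes for the factor that binds the CLEAR element, ran at 13.0, 11.2 and 12.5 CPM in AL, 17.1, 12.7, 16.3 and 22.8 CPM in LC and 8.96, 9.72 and 11.6 CPM in RF. LC replicate 2 overlapped AL. The log2 difference was 0.50 ± 0.19 at LC against AL (adjusted p = 0.0545; 0.80, adjusted p = 0.006, with library totals alone) and -0.77 ± 0.19 at RF against LC (adjusted p = 0.0113). Tfe3 was at -0.03 ± 0.14 at LC (adjusted p = 0.899). Of the V-ATPase accessory genes, Atp6ap1 fell at LC (-0.33 ± 0.11, adjusted p = 0.0378), though not with library totals alone (-0.01, adjusted p = 0.957), and Atp6ap2, the prorenin receptor, was not called (0.20 ± 0.13, adjusted p = 0.257).

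These are bulk liver samples, in which fewer cells of a type and less RNA per cell cannot be told apart. Hepatocyte markers were abundant in every library, and 6 of 10 fell at LC against AL and none rose (none was called with library totals alone), with a summed level of 91850 to 111530 CPM in AL, 64864 to 75864 CPM in LC and 86424 to 92001 CPM in RF. Of 15 Kupffer cell and macrophage markers, 3 fell at LC (C1qb, Mpeg1 and Lyz2) and none rose, and with library totals alone 2 fell and 2 rose. Their summed level was 183 to 272 CPM in AL, 145 to 263 CPM in LC and 197 to 284 CPM in RF, and no marker was at 0 in all libraries. The log2 values of the 15 at LC against AL ran from -1.42 (Lyz2) to 0.53 (Timd4), with 10 below 0 and 5 above, and that of Ctss was -0.66. Of 9 sinusoidal endothelial markers, 4 rose at LC and none fell, with a summed level of 191 to 206 CPM in AL, 295 to 321 CPM in LC and 256 to 299 CPM in RF. Their log2 values at LC against AL ran from -0.61 to 0.95, with 5 above 0, 4 below and a median of 0.09. Beside these marker counts, 16% of all genes tested rose at LC and 15.6% fell. The part of these cell types in the lysosomal results was not tested.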

How the data were processed

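RNA was measured in 10 mouse liver libraries, which were grouped by their labels (AL 3, LC 4, RF 3). Per the labels' protocols, libraries were enriched for poly(A), did not keep strand and were sequenced on DNBSEQ, with RNA integrity numbers of 6.6 to 8.5. The authors deposited expected counts (estimated counts, of which 10.9% were not whole) and FPKM per gene. The submitters' processing notes name HISAT, Bowtie2 and GRCm39; the sources used here do not give the counting program, the annotation or tool versions.

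Expected counts were rounded, filtered with filterByExpr, scaled by TMM (trimmed mean of M values) and tested in R 4.3.3 with edgeR 4.0.16, using 1 robust quasi-likelihood fit of group means to the 10 libraries. Every adjusted p is Benjamini-Hochberg over all 12789 genes tested, called below 0.05. The SE of a log2 fold change is its size divided by the root of the F statistic. Alternatives were relative log expression factors, library totals, DESeq2 1.42.0, no filter, a mean of at least 5 CPM, the 2 compared groups only, a replicate block, log2 FPKM with an offset of 1 or 0.1 in limma 3.58.1 (with and without a filter at 0.5 FPKM), and leaving out each library. The edgeR fit and a log2 FPKM fit in limma were tried on simulated data in which few genes changed. In the simulated counts rises and falls were balanced, so this did not probe how results depend on the scaling. The other steps were not simulated.

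Given in every library were the called genes, the gene of each role with the highest FPKM and Ctsb, Ctsd, Ctsl, Lamp1, Lamp2, Gaa, Mcoln1 and Atp6v1h; named of the other lysosomal genes were the 8 with the smallest p at LC against AL and Tfeb, Tfe3, Tcirg1, Atp6ap1, Atp6ap2, Lipa and Npc1. The genes, lists and motifs were chosen with earlier results of these data known. Expected counts divide reads between similar or overlapping genes by a model, so those genes are less certain.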

Additional observations from a re-analysis of the deposited data

Results flagged for a closer look

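In the LC group, the only one with 4 libraries, the highest or lowest library was compared with the rest for each of the 50 tested genes, and a gap of more than 0.829 of the group's range was taken as apart. Chance alone gives this in about 1 in 20 groups, and 4 of 50 were found. Atp6v0d1 in LC replicate 4 was at 51.9 CPM, with the others from 43.6 to 44.3 CPM. Atp6v0d2, a minor form of subunit d, was at 5.79 CPM in LC replicate 2 and from 1.72 to 2.01 CPM in the others; without that library its log2 change at LC against AL was -1.57 (adjusted p = 0.0052), and with it -0.96 (adjusted p = 0.128). Hexa, a hexosaminidase subunit, was at 40.0 CPM in LC replicate 4 and from 29.3 to 31.1 CPM in the others. Man2b1 was at 96.6 CPM in LC replicate 1 and from 77.4 to 80.6 CPM in the others.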

How the results depend on the processing

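The 29 calls of single genes were recomputed 577 times: 478 values kept direction and call, 99 lost the call and none reversed. Called under all 20 alternatives were 7 of 15 genes at LC against AL (Ctsa, Ctsb, Ctsf, Ctsl, Lamp1, Ppt1 and Atp6v1e1) and 2 of 14 at RF against LC (Ctsa and Ppt1). The reported counts were 4 higher and 11 lower at LC against AL and 9 higher and 5 lower at RF against LC. In the same order, library totals alone gave 12, 6, 2 and 8. Log2 FPKM gave 11, 7, 3 and 10 with an offset of 1 or 0.1, and 11, 5, 2 and 8 with no filter. Over all genes, library totals alone called 4395, 686, 673 and 2724 of 12789. Log2 FPKM called 4062, 705, 698 and 2717 of 11635 genes with an offset of 1. The all-gene counts were 4054, 704, 689 and 2646 with an offset of 0.1. With no filter they were 4031, 667, 622 and 2496 of 17096 genes. Leaving out 1 library gave 2 to 7 higher and 10 to 17 lower at LC against AL, and 2 to 10 higher and 2 to 5 lower at RF against LC. Over all genes, leaving out 1 library gave 959 to 2186 higher and 1151 to 2167 lower at LC against AL. At RF against LC it gave 792 to 1604 higher and 643 to 1537 lower. Relative log expression factors, DESeq2, no filter on counts, the 5 CPM filter and the 2-group fits kept every count within 1.5 times. RF against AL had no call under any alternative. The replicate block gave 4, 11, 9 and 5 calls and 0 at RF against AL. At RF against LC, Lamp2 lost its call and Atp6v0d1 was newly called (0.33, adjusted p = 0.0431). Same-numbered libraries deviated together with correlations of -0.02 to 0.13 for LC and AL and -0.08 to 0.02 for RF and AL. For RF and LC they ran from 0.06 to 0.32. Differently numbered libraries gave -0.15 to 0.13 for LC and AL and -0.08 to 0.07 for RF and AL. For RF and LC they gave -0.24 to 0.19, below the 0.32 of replicates 1 and the 0.23 of replicates 2. The numbers were not taken as pairs, and the replicate block was run only as an alternative. At low counts the precision was lowest, with a standard error of 0.57 for Ctsw and 0.45 for Atp6v0d2 at LC against AL.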
